A study of Homo sapiens with 6 samples.

Results

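RET, GFRA2 and NGFR encode cell-surface receptors for the GDNF family of growth factors and for the neurotrophins. They were compared in LA1-55n, an established human neuroblastoma cell line, and are 3 of the 14779 genes with a named probe set on the arrays. Each gene was read by a single named probe set, so no choice between probe sets was needed. The control cells (shGFP, 3 arrays) held a hairpin against GFP that doxycycline switches on, and the other cells (shGLDC99, 3 arrays) a single such hairpin against glycine decarboxylase, an enzyme of glycine breakdown; both were kept in 0.5 µg/ml doxycycline for 7 days. The samples are described as independent, without saying what separated them, and p-values therefore reflect only how far these samples scatter, which may be technical. In the RefSeq annotation of GRCh38.p14, RET lies on chromosome 10, GFRA2 on chromosome 8 and NGFR on chromosome 17.

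RET is the receptor tyrosine kinase through which the ligands GDNF, neurturin, artemin and persephin act. The ligand does not bind RET alone: it first binds a lipid-anchored co-receptor of the GFRA family, and the complex then brings RET molecules together and switches on their kinase. GFRA2 is the preferred co-receptor of neurturin (NRTN), and GFRA1 that of GDNF. NGFR, also called p75, is a member of the TNF receptor family that binds all neurotrophins and has no kinase of its own. In the sympathetic nervous system, from which neuroblastoma arises, these receptors serve the growth, migration and survival of neuroblasts and neurons.

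In shGLDC99 cells the RET transcript was higher, the GFRA2 transcript was lower, and NGFR showed no difference beyond the spread between arrays. GFRA2 fell to 46.9% of its control level. RET rose 1.57-fold from a control level not shown to exceed background, and its call was lost in 8 of 15 alternative settings. GFRA1, which pairs with RET for GDNF, fell together with GFRA2, whereas SHC3 and SHC2, adaptors that can bind activated receptor tyrosine kinases, rose. Of the 4 GDNF-family and related ligands measured, 0 changed, where 8.52% of all genes did. So short a list does not show that the ligands stayed constant.

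The proximal promoters of RET and GFRA1 are shown because the receptor and this co-receptor moved in opposite directions and their upstream sequences differ. Whether these sequences bear on the changes was not tested. The RefSeq promoter table (GRCh38.p14) matched 1 of the 3 receptor genes, RET; GFRA2 and NGFR had no entry. Each line holds the 250 bases upstream of the most upstream start listed for the gene, on the strand of the gene, with the GC box GGGCGG or its reverse complement CCGCCC in capitals. The RET window is chr10:43076819-43077068 on the plus strand and the GFRA1 window is chr10:116274706-116274955 on the minus strand.
RET: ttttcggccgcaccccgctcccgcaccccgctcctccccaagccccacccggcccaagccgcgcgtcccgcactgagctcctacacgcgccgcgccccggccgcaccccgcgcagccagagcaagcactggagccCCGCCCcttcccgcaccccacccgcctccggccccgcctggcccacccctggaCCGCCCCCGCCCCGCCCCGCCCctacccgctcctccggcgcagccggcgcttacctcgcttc
GFRA1: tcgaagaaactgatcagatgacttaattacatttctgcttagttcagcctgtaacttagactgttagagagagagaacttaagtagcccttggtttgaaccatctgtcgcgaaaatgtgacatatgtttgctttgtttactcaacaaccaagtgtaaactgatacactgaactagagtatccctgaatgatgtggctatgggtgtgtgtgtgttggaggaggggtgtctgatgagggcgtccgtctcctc

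The RET window was 79.6% G and C, against a median of 57.6% over 27305 genes with such a window, and held 5 GC boxes counted on both strands. A GC box was present in 42.2% of all windows, and 4.13% held at least 5. The GFRA1 window was 43.2% G and C and held 0 GC boxes. The table lists 2 starts for RET and 4 for GFRA1, and the array does not tell which were used. The letters AGATAA, bound by GATA factors, and GCGTGGGCG, bound by EGR1, were looked for because GATA2, GATA3 and EGR1 changed. Neither was found on either strand of the RET or GFRA1 window, where 9.4% and 0.714% of all windows hold them. These counts describe letters in a window and say nothing of binding.

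Values are read as log2 intensity, used as deposited, and differences are shGLDC99 minus shGFP. The log base is not stated in the sources used here and was inferred from the range of the values, so every fold rests on it. The words rose, fell and changed are kept for genes whose Benjamini-Hochberg adjusted p from limma, over all 14779 genes, was under 0.05. The hairpin's target GLDC fell by 2.00 (adjusted p = 0.00101). The median difference over all genes was -0.01, array medians lay between 4.28 and 4.33, and arrays of one group correlated at 0.993 to 0.994. Of 13 measured markers of adrenergic neuroblastoma, 12 reached the level of the median gene, 5.09, and 9 of 15 mesenchymal markers did so, against 0 of 7 measured Schwann and glial markers. The number of arrays limits the precision. In bulk RNA, fewer cells carrying a transcript and less of it per cell cannot be told apart.

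RET was read at 4.89, 4.36 and 4.71 in shGFP arrays a, b and c and at 5.33, 5.34 and 5.24 in shGLDC99 arrays a, b and c. All shGLDC99 arrays lay above all shGFP arrays. The control arrays were the more scattered group, with array b the lowest. The means were 4.65 ± 0.270 (SD, n = 3) and 5.30 ± 0.0568 (SD, n = 3). RET rose by 0.65 ± 0.14 (SE) on the log2 scale, with a 95% interval of 0.32 to 0.97 (limma adjusted p = 0.0346). Over all genes 3.72% rose, in 14.5% every shGLDC99 array lay above every shGFP array, and in 30.8% the groups were separate in either direction. The RET call is not stable: with 1 array left out it held only without shGFP array a, and the adjusted p was 0.0504 without shGFP array b, 0.0899 without shGFP array c, and 0.100, 0.103 and 0.0874 without shGLDC99 arrays a, b and c. The difference itself was 0.50 to 0.77 in these fits. The control level of RET lies below the median gene level and is not shown to exceed background, so the size of the rise is uncertain.

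GFRA2 was read at 8.18, 8.18 and 8.13 in shGFP arrays a, b and c and at 7.00, 7.14 and 7.07 in shGLDC99 arrays a, b and c. The groups were separated by far more than the range within either. The means were 8.16 ± 0.0267 (SD, n = 3) and 7.07 ± 0.0702 (SD, n = 3). GFRA2 fell by 1.09 ± 0.07 (SE), or 2.13-fold, with a 95% interval of -1.25 to -0.94 (limma adjusted p = 0.00152). Over all genes 4.80% fell, and in 16.3% every shGLDC99 array lay below every shGFP array. By the size of its difference GFRA2 ranked 40 among the 14779 genes, where RET ranked 267. The GFRA2 call held with any 1 of the 6 arrays left out (adjusted p 0.0104 to 0.0147).

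NGFR was read at 4.06, 4.27 and 4.06 in shGFP arrays a, b and c and at 3.98, 4.32 and 4.33 in shGLDC99 arrays a, b and c. The groups overlapped, and shGLDC99 array a was the lowest of all 6. The means were 4.13 ± 0.122 (SD, n = 3) and 4.21 ± 0.201 (SD, n = 3). The difference was 0.08 ± 0.12 (SE), with a 95% interval of -0.20 to 0.36 (limma adjusted p = 0.742). Both means were lower than the median gene, and neither was shown to be above background. A change of a size within that interval is therefore not excluded. The interval is not a detection limit, and a somewhat larger change could also have missed the threshold over all genes.

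For each single receptor, an exact two-sided permutation test over the 6 arrays gave p = 0.1 for RET, p = 0.1 for GFRA2 and p = 0.8 for NGFR. With 3 arrays against 3, 0.1 is the smallest p this test allows.

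**Figure D1:**
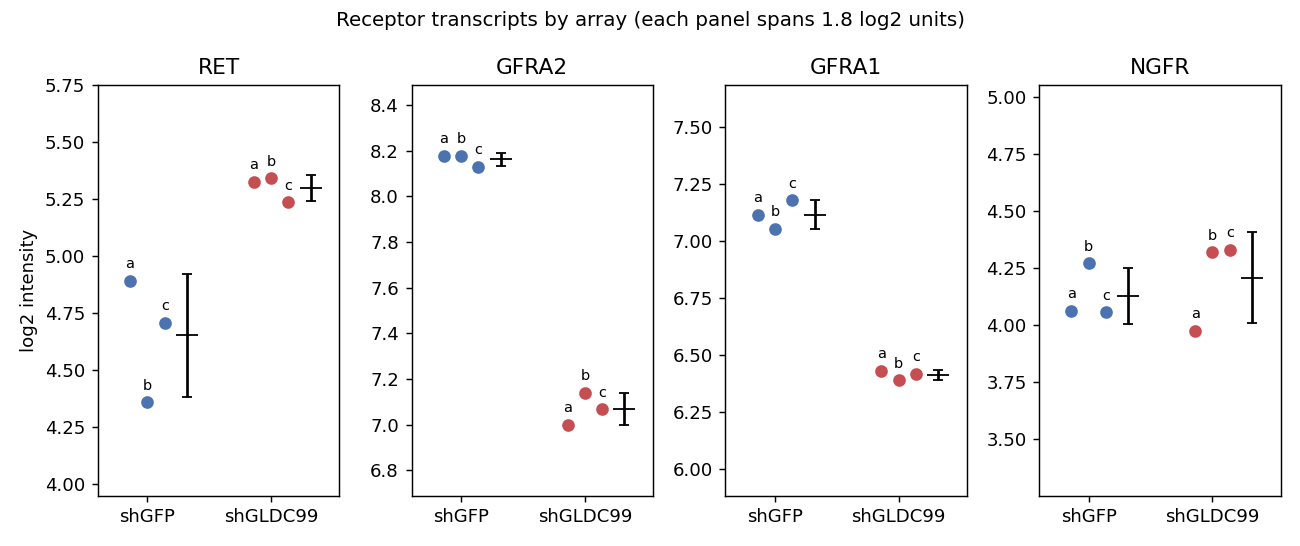
Log2 intensity of RET, GFRA2, GFRA1 and NGFR in each array (points, lettered by replicate), with the mean and SD of the 3 arrays beside them; each panel spans the same number of log2 units, and heights are not comparable between genes. RET points lie at 4.36 to 4.89 in shGFP and 5.24 to 5.34 in shGLDC99, GFRA2 and GFRA1 lie lower in every shGLDC99 array, and the NGFR groups overlap.

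Among 8 measured GDNF-family co-receptors and related partners, GFRA2 included, 2 rose and 2 fell, leaving 4 short of the threshold. The median difference was -0.05, and over all genes 8.52% changed. GFRA2, reported above, is among the falls, and the list was chosen with earlier results of these data known. The counts are therefore no separate support for a change of the family. GFRA1 was read at 7.11, 7.05 and 7.18 in shGFP arrays and at 6.43, 6.39 and 6.42 in shGLDC99 arrays. Its groups did not overlap, and it fell by 0.70 ± 0.06 (SE), or 1.63-fold (limma adjusted p = 0.00378). The call held with any 1 array left out (adjusted p 0.0199 to 0.0236). The difference was larger for GFRA2 than for GFRA1 in each array: relative to the control mean, the GFRA2 to GFRA1 log2 ratio was -0.48, -0.30 and -0.40 in shGLDC99 arrays a, b and c, against 0.02, 0.08 and -0.09 in shGFP arrays. This ratio was formed after the values were seen, and its exact two-sided permutation p was 0.1, the smallest possible.

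GAS1 and the remaining GFRA transcripts were short of the threshold. GFRA3, the artemin co-receptor, differed by -0.09 (adjusted p = 0.683) and GFRA4, the persephin co-receptor, by 0.14 (adjusted p = 0.533). GFRAL, the GDF15 co-receptor, differed by -0.10 (adjusted p = 0.701) and GAS1, a GFRA-related protein that can bind RET, by -0.01 (adjusted p = 0.964). Of these, GFRA3 alone lay above the median gene level.

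The 2 partners that rose are outside the GFRA family. NCAM1, an adhesion molecule that can take up GDNF signals without RET, was read at 8.41, 8.56 and 8.49 in shGFP arrays and at 8.93, 8.92 and 8.92 in shGLDC99 arrays. All its shGLDC99 arrays were higher, and it rose by 0.43 ± 0.07 (SE; limma adjusted p = 0.0139). Its adjusted p was 0.0551 without shGFP array c and 0.0525, 0.0527 and 0.0522 without shGLDC99 arrays a, b and c. SDC3, a heparan sulphate proteoglycan that binds GDNF, was read at 4.75, 4.82 and 4.91 in shGFP arrays and at 5.54, 5.57 and 5.38 in shGLDC99 arrays. Its groups did not overlap, and it rose by 0.67 ± 0.08 (SE; limma adjusted p = 0.00796), from a control level below the median gene level.

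No change was detected in the ligands of these receptors. Of the 5 listed GDNF-family and related ligands, 4 were measured, 0 rose and 0 fell, with a median difference of -0.02. Over all genes 8.52% changed, so 0 of 4 does not show that the ligands stayed constant. GDNF itself was not analysed here. NRTN, the ligand of GFRA2, was read at 5.28, 5.32 and 5.38 in shGFP arrays and at 5.35, 5.26 and 5.20 in shGLDC99 arrays. The groups overlapped, and the difference was -0.06 (adjusted p = 0.671). ARTN, encoding artemin, differed by -0.10 (adjusted p = 0.554), PSPN, encoding persephin, by 0.02 (adjusted p = 0.888) and GDF15, the ligand of GFRAL, by 0.17 (adjusted p = 0.632). Of the 4, NRTN alone lay above the median gene level.

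**Figure D2:**
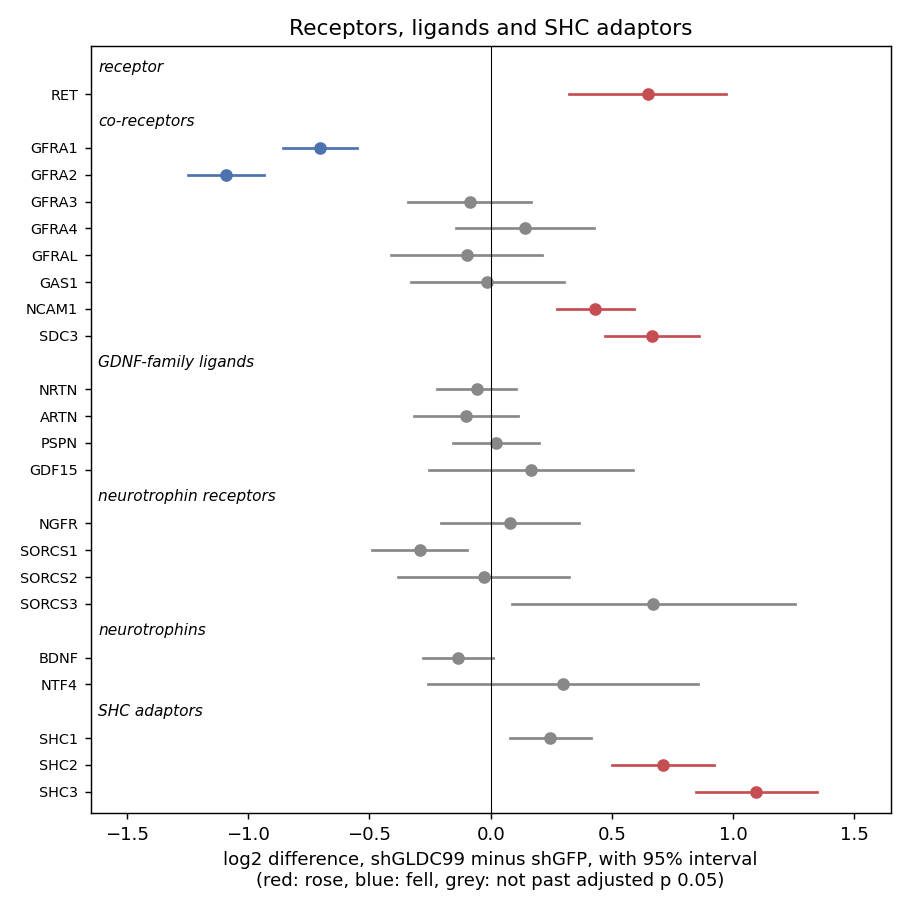
Log2 difference, shGLDC99 minus shGFP, with its 95% interval from the limma model (not adjusted for the number of genes) for RET, its co-receptors and ligands, the neurotrophin receptors and neurotrophins, and the SHC adaptors. RET (0.65), NCAM1 (0.43), SDC3 (0.67), SHC2 (0.71) and SHC3 (1.10) rose, and GFRA1 (-0.70) and GFRA2 (-1.09) fell. Of the 4 GDNF-family and related ligands 0 changed, where 8.52% of all genes did, which does not show that they stayed constant.

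On the neurotrophin side the data are thin. Of 4 measured neurotrophin and sortilin-type receptors, NGFR included, 0 changed, where 8.52% of all genes did. The sorting receptors SORT1 and SORL1 were not analysed here. SORCS1, a sortilin-related receptor, had a difference of -0.29 (adjusted p = 0.0784) and was lower in each shGLDC99 array than in any control array. SORCS2, which can form a complex with NGFR, differed by -0.03 (adjusted p = 0.933). SORCS3 differed by 0.67 ± 0.25 (SE; adjusted p = 0.152), with shGFP arrays from 3.22 to 4.18 and shGLDC99 arrays from 4.13 to 4.58, so that the groups overlapped. Of the neurotrophins, BDNF differed by -0.13 (adjusted p = 0.238) and NTF4 by 0.30 (adjusted p = 0.502).

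Of 18 measured genes for NGFR's partners and the proteases that cut it, 0 changed, and the median difference was 0.00. Over all genes 8.52% changed, so 0 calls in a short list does not show that its genes stayed constant. The 3 largest differences, none past the threshold, were those of PSEN2, PSENEN and ADAM17. PSEN2, a catalytic subunit of gamma-secretase, differed by 0.47 (adjusted p = 0.0557), and PSENEN, another subunit of that protease, by 0.30 (adjusted p = 0.0503). ADAM17, which sheds the outer part of NGFR, differed by -0.26 (adjusted p = 0.0803). Of 4 measured relatives of NGFR in the TNF receptor family 0 changed: RELT differed by -0.18 (adjusted p = 0.377), EDAR by -0.14 (adjusted p = 0.636) and EDA2R by -0.05 (adjusted p = 0.816).

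Below RET, 2 adaptors rose. They were 2 of 22 measured adaptors and effectors, a share near the 8.52% changed over all genes; 0 fell, and the median difference was 0.08. SHC3, the SHC protein of neurons, was read at 5.08, 5.31 and 5.43 in shGFP arrays and at 6.45, 6.40 and 6.27 in shGLDC99 arrays. It rose by 1.10 ± 0.11 (SE), or 2.14-fold, with no overlap (limma adjusted p = 0.00419). SHC2 was read at 5.24, 5.27 and 5.11 in shGFP arrays and at 6.06, 5.85 and 5.84 in shGLDC99 arrays, and rose by 0.71 ± 0.09 (SE), or 1.64-fold (limma adjusted p = 0.00804). Both calls held with any 1 array left out. The widely expressed SHC1 differed by 0.25 (adjusted p = 0.0808), with every shGLDC99 array above every shGFP array. CD2AP, a scaffold that takes part in the turnover of receptors, differed by -0.34 (adjusted p = 0.0573). GRB2, which links SHC proteins to RAS activation, differed by 0.10 (adjusted p = 0.524).

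Genes that respond to RET or neurotrophin signalling moved in both directions. Of 19 measured, 4 rose and 3 fell, where 3.72% of all genes rose and 4.80% fell, and the median difference was -0.06. The rises were DUSP4 (1.49), a phosphatase that inactivates MAP kinases, SPRY2 (0.90), an inhibitor of receptor tyrosine kinase signalling, VGF (0.57), a secreted neuropeptide precursor induced by neurotrophins, and ETV5 (0.46), a transcription factor of the MAP kinase pathway. The falls were the early response factors EGR1 (-0.71) and FOSB (-0.43) and the cyclin CCND1 (-0.60). DUSP6, a phosphatase of ERK, was not past the threshold (0.29, adjusted p = 0.224), nor was FOS (-0.27, adjusted p = 0.421). Leaving out any 1 array left 2 or 3 rises and 2 or 3 falls. DUSP4, SPRY2, EGR1 and CCND1 were past the threshold in all 6 such fits, but VGF in only 2, and ETV5 and FOSB in only 1 each. ETV5 and FOSB lay below the median gene level in both groups and are not shown to exceed background.

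Of 35 measured receptor tyrosine kinases other than RET, 0 rose and 4 fell, not far from the 8.52% changed over all genes, and their median difference was -0.08. The falls were EPHB4 (-0.81) and EPHA5 (-0.58), receptors for ephrins, EGFR (-0.64), and MET (-0.30), the receptor for hepatocyte growth factor. KIT, the stem cell factor receptor, had the largest positive difference (0.37, adjusted p = 0.0503), and ALK, the kinase most often mutated in neuroblastoma, differed by 0.13 (adjusted p = 0.452). Leaving out any 1 array left 1 to 3 falls and 0 or 1 rise. EPHB4 was past the threshold in all 6 such fits, EGFR and EPHA5 in 3 each, and MET in 0.

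Of 14 measured transcription factors of RET-expressing and sympathetic cells, 3 fell and 1 rose (8.52% of all genes changed), with a median difference of -0.07. ISL1, a LIM homeodomain factor, was read at 7.38, 7.39 and 7.42 in shGFP arrays and at 6.53, 6.21 and 6.20 in shGLDC99 arrays. It fell by 1.09 ± 0.10 (SE; limma adjusted p = 0.00412), a call that held with any 1 array left out. GATA2 (-0.56) and GATA3 (-0.48), zinc finger factors of sympathetic development, fell, and INSM1 (0.26), a transcriptional repressor found in neuroendocrine cells, rose. PHOX2A, a homeobox factor of the autonomic lineage, differed by -0.21 (adjusted p = 0.166) and HAND2 by 0.08 (adjusted p = 0.455). SOX10, which drives RET in neural crest cells, lay below the median gene level and differed by -0.02 (adjusted p = 0.952). Leaving out any 1 array left 1 to 3 falls and 0 rises.

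**Figure D3:**
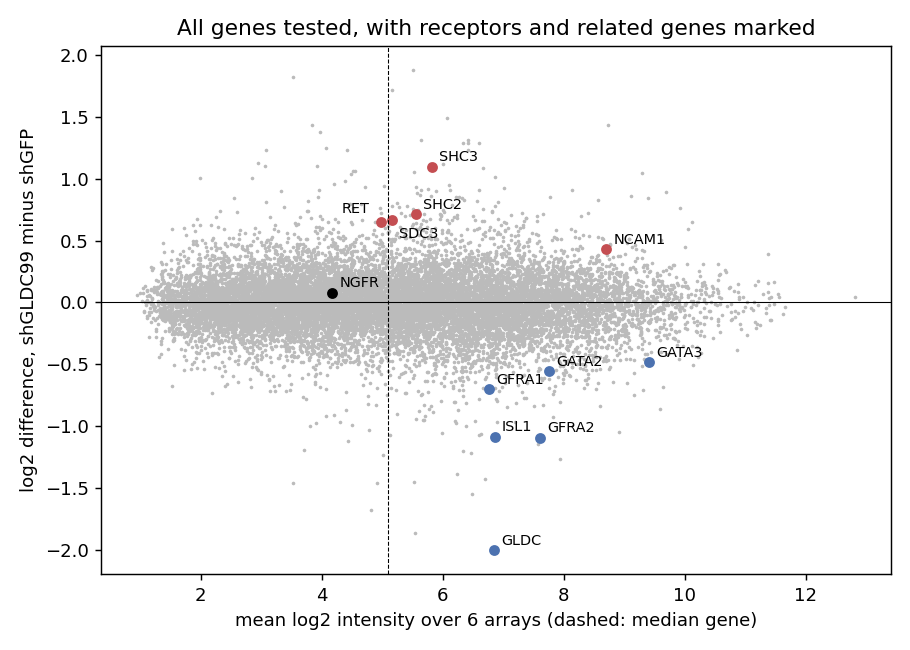
Log2 difference, shGLDC99 minus shGFP, against the mean log2 intensity over the 6 arrays for all 14779 genes (grey points), with selected genes in red (rose), blue (fell) or black (not past the threshold) and a dashed line at the median gene level. GFRA2 lies at -1.09 well to the right of the line, RET at 0.65 just to its left, and NGFR at 0.08 in the dim part.

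Some markers of cell identity also changed, where 8.52% of all genes did. Among 13 measured adrenergic markers, 5 fell (ISL1, TBX2, GATA2, SATB1 and GATA3) and 2 rose (EYA1 and CHGB), with 1 to 4 falls and 0 or 1 rise when any 1 array was left out. Of the rises, CHGB was past the threshold in 2 of the 6 such fits and EYA1 in 0. The median difference of the 13 adrenergic markers was -0.01, and 6 of 13 were higher. Their summed linear intensity, which the brightest probe sets dominate, was 2491 to 2678 in shGFP arrays and 2204 to 2316 in shGLDC99 arrays. Among 15 measured mesenchymal markers, 5 fell (FN1, YAP1, NOTCH3, NOTCH2 and VIM) and 2 rose (FOSL2 and IRF2), with 3 to 5 falls and 0 or 1 rise when any 1 array was left out. YAP1 lay below the median gene level in both groups and is not shown to exceed background. The median difference of the 15 was -0.22, and the sums were 1010 to 1073 and 818 to 894. Both sums were lower in every shGLDC99 array. The 7 measured Schwann and glial markers, a lineage in which NGFR is typically abundant, summed to 110 to 129 and 107 to 124, and 0 changed; PRX (-0.13), MBP (-0.08) and FOXD3 (0.06) had adjusted p-values of 0.567, 0.700 and 0.893. The part of these shifts in the receptor differences was not tested.

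The genes whose pattern over the 6 arrays was most like each receptor were taken among genes at or above the median gene level. For RET these were ARSG, a sulfatase (Pearson r = 0.995), LYN, a kinase of the SRC family (r = 0.995), and HOXD13, a homeobox factor (r = 0.993), with differences of 0.42, 0.40 and 0.59. For GFRA2 they were RALA, a small GTPase (r = 0.999), CDCA7, a cell cycle gene (r = 0.998), and DCLRE1A, a DNA crosslink repair nuclease (r = 0.998), with differences of -0.41, -0.61 and -0.35. For NGFR they were the probe set annotated to MIR596 (r = 0.978), CDC123 (r = 0.974) and CD24 (r = 0.964), with differences of 0.13, 0.01 and 0.01. With 6 arrays in 2 groups, such values are high for any pair of genes that differ between the groups, and they are given as a description.

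**Figure D4:**
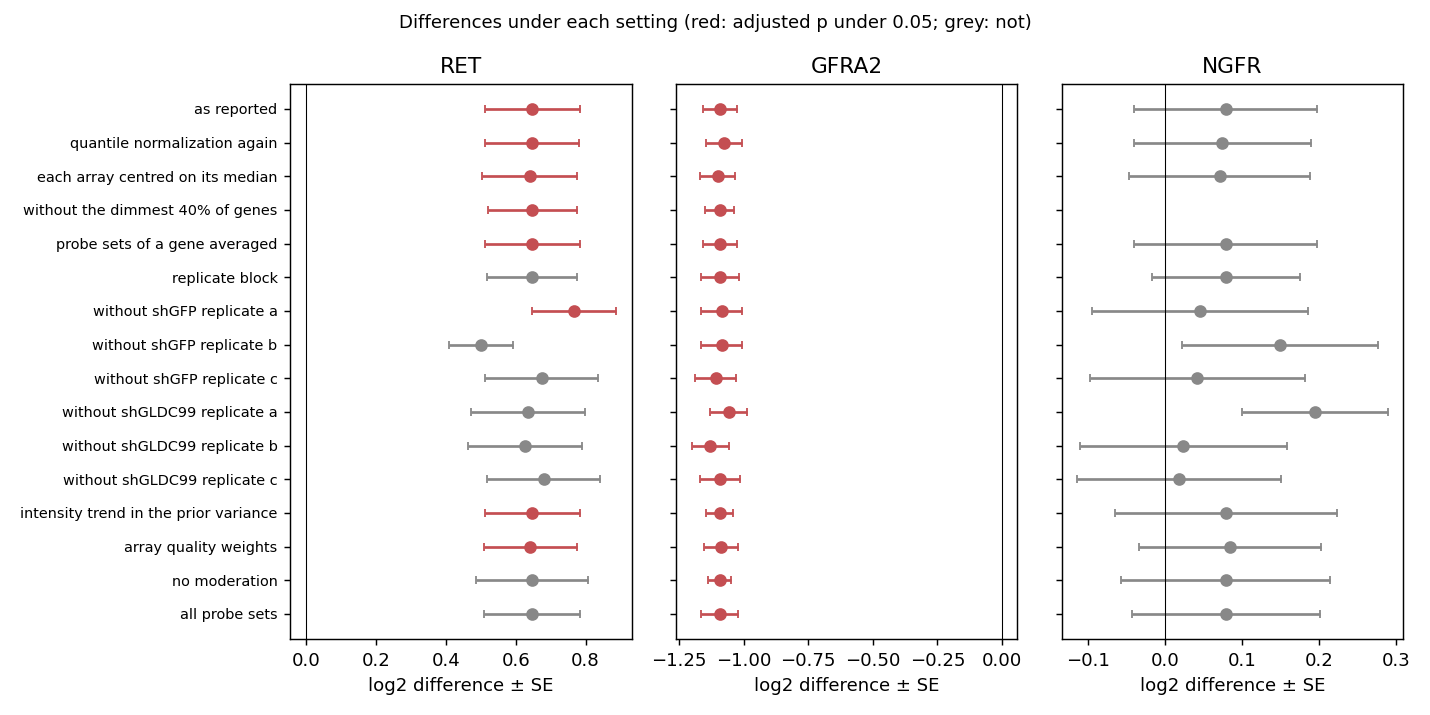
Log2 difference ± SE of RET, GFRA2 and NGFR as reported and under each alternative, in red where the adjusted p was under 0.05 and in grey where it was not; scales differ between panels. GFRA2 is red throughout, between -1.13 and -1.06, RET stays between 0.50 and 0.77 but turns grey in 8 of 15 alternatives, and NGFR is grey wherever it was tested (it is absent without the dimmest genes).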

How the data were processed

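Total RNA of 6 samples was hybridised to Affymetrix Human Gene 2.0 ST arrays, as the series design text states. The authors deposited values per probe set, read here as log2 intensity. The submitters' processing notes name Partek with no version; how they handled background, normalization and probe set summaries is not given in the sources used here. Log2 was inferred because the values reach 13.28, and a natural log of a 16-bit intensity cannot pass 11.09. No further normalization or filter was applied. Of 31135 probe sets, 15098 carried 1 gene symbol in the platform annotation, 0 several, and 16037 were unnamed here; symbols matched RefSeq by Entrez ID (0 updated). The named probe sets covered 14779 genes, each represented by its highest-mean probe set.

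The test was limma 3.58.1 under R 4.3.3 (lmFit and eBayes without covariates), adjusted over all 14779 genes; plots used matplotlib 3.10.9. On simulated data for this comparison (14779 genes, 100 changed at each size), 34% of genes changed by 0.5 and 89% of those changed by 1 on the log2 scale were recovered, and 5 of 128 calls were false. The simulation changed fewer genes than the 1259 called in the data and drew noise from each gene's own residual SD. These shares need not hold for the data. The receptors and 13 gene lists were chosen with earlier results of these data known. Named were the receptors, GLDC, measured ligands, co-receptors, neurotrophins and their receptors, list genes past the threshold (or the largest differences, up to 3, where fewer passed), and the 3 genes most like each receptor; KIT, ALK, SHC1, GRB2, DUSP6, FOS, PHOX2A, HAND2 and SOX10 were added after their values were seen. Alternatives were quantile normalization again, median centring, leaving out the dimmest 40% of genes, averaged probe sets, the replicate letter as a block, each array left out, an intensity trend, array weights, no moderation, and all probe sets.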

Additional observations from a re-analysis of the deposited data

How the results depend on the processing

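GFRA2 kept its direction and its call in all 15 alternatives (-1.13 to -1.06, adjusted p from 2.5e-07 to 0.0314). NGFR was not called in any of the 14 alternatives that tested it (0.02 to 0.19), and leaving out the dimmest 40% of genes removed it. RET kept its direction in all 15 (0.50 to 0.77) and its call in 7. Its difference of 0.65 was not past the threshold with the replicate block (adjusted p = 0.0805), without moderation (0.109) or over all probe sets (0.0503), where more features are tested; with 1 array left out it ranged from 0.50 to 0.77. Whether the replicate letters pair the arrays is not stated in the sources used here. Deviations of same-lettered arrays from their group means correlated at -0.01, 0.02 and 0.00, which does not settle it. The block gave 229 changed genes. It adds terms for the letters to the fit and so leaves less to estimate the spread from. Of 14779 genes 1259 changed as reported, 2221 without the dimmest 40% of genes (8867 tested), 2438 where the prior variance followed intensity, and 461 to 546 with 1 array left out. Why these counts differ was not tested, beyond fewer genes or arrays, or for the block more terms, entering the fit. Of 39 named genes called as reported, 13 kept their call under the block (GFRA2, GFRA1, SHC2, SHC3, ISL1, EPHB4, DUSP4, SPRY2, EGR1, CCND1, FN1, CDCA7 and GLDC). The other 26, RET, NCAM1, SDC3, GATA2 and GATA3 among them, had adjusted p-values of 0.0531 to 0.134. The adrenergic and mesenchymal marker lists each kept 1 fall and 0 rises. Signs turned only among differences near 0 that were not called: with 1 array left out PSPN ranged from -0.025 to 0.062, SORCS2 from -0.18 to 0.061, GAS1 from -0.11 to 0.096, GFRA3 from -0.17 to 0.022, MBP from -0.19 to 0.0068, FOXD3 from -0.19 to 0.21, EDA2R from -0.15 to 0.033, MIR596 from -0.051 to 0.38, CDC123 from -0.015 to 0.065 and CD24 from -0.018 to 0.048, and CD24 was -0.00073 with median centring. The levels of RET in shGFP arrays and of NGFR in both groups were not shown to exceed background, which limits both readings.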
